A study of Mus musculus with 18 samples.

Results

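Processed pseudogenes that gave measurable RNA in mouse oocytes are described here. They are the genes annotated in GENCODE vM21 as processed pseudogene or transcribed processed pseudogene that reached at least 1 FPKM (read fragments scaled to exon length and library size) in at least 3 of 18 libraries. The rule found 738 of the 3217 processed pseudogenes of the deposited table, among 27874 genes in all. Of the 738, 681 were annotated as processed pseudogene and 57 as transcribed processed pseudogene. The libraries each held 15 oocytes from wild-type (WT) or Lsm14b-/- (KO) mice, collected in the germinal vesicle state (GV), in metaphase I (MI) or 14 h after human chorionic gonadotropin, a time the labels denote as MII for both genotypes. There were 3 libraries in each of the 6 groups. The product of Lsm14b binds RNA in cytoplasmic granules, and the study's question is what becomes of stored maternal transcripts in its absence. The sources used here give no mouse strain or age, kind of Lsm14b allele or maturation state of each KO oocyte, and nothing states that the 3 libraries of a group came from separate animals. The p-values below therefore measure the spread between these libraries.

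A processed pseudogene is a copy of a messenger RNA that was reverse transcribed by the LINE-1 machinery and inserted elsewhere in the genome. It has no introns of its parent and usually no promoter of its own, so RNA from it depends on where it landed. Mouse oocytes are known for RNA from such copies, some of which is processed into small interfering RNAs against the parent. A young copy is nearly identical to its parent, and a short read from the parent can be assigned to the copy, or the reverse.

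Aligned stretches show how far apart copy and parent can be, and they are printed because the results below turn on this. All are read 5′ to 3′ on the transcribed strand, taken from the GENCODE vM21 transcripts with GRCm38 coordinates, within the part aligned to the coding sequence of the closest coding gene. Capitals mark the bases that differ within each pair. Gm10123 (chr9:96895658-96895807, plus strand) had no difference from Ppia, the cyclophilin A gene, over its first 150 bases, which span 3 exons of Ppia, so 1 line stands for both.
Gm10123 and Ppia: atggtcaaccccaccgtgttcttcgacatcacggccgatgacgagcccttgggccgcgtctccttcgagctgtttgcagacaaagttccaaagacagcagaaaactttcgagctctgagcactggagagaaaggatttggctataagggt
Gm5946 (chrX:150223187-150223336, minus strand) differed at 6 of 150 bases from Bmi1 (chr2:18681812-18682260, plus strand, over 2 exons), which encodes a Polycomb protein.
Gm5946: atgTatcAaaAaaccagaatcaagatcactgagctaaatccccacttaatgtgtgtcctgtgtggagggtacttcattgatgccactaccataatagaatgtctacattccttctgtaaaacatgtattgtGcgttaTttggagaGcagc
Bmi1: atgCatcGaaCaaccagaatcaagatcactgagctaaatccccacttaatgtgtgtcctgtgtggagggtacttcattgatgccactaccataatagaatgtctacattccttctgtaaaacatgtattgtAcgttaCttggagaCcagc
Gm5434 (chr12:36090482-36090631, plus strand) differed at 13 of 150 bases from Ube2f (chr1:91254276-91265219, plus strand, over 3 exons), which encodes a NEDD8-conjugating enzyme.
Gm5434: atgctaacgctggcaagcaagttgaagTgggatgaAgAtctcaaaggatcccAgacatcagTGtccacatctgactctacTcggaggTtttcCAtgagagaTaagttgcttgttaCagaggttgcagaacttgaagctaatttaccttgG
Ube2f: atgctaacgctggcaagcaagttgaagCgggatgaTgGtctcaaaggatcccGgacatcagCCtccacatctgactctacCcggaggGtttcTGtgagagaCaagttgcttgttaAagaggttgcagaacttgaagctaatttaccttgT
Gm47672 (chr12:105135269-105135418, plus strand) differed at 28 of 150 bases from Tcl1b2 (chr12:105147232-105153146, plus strand, over 2 exons), an oocyte gene of the Tcl1 family on the same chromosome.
Gm47672: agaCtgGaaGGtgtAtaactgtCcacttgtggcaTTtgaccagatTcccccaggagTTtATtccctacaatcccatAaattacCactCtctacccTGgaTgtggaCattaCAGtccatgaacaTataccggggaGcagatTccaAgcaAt
Tcl1b2: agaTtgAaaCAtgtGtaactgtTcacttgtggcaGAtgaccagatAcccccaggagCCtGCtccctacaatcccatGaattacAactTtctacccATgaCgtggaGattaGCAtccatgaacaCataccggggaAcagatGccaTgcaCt
Rps4l (chr6:148354710-148354859, plus strand) differed at 31 of 150 bases from Rps4x (chrX:102187934-102189300, minus strand, over 3 exons), which encodes ribosomal protein S4.
Rps4l: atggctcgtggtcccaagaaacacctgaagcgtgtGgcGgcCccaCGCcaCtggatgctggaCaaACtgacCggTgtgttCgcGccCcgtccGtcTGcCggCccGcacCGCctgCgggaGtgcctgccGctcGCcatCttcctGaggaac
Rps4x: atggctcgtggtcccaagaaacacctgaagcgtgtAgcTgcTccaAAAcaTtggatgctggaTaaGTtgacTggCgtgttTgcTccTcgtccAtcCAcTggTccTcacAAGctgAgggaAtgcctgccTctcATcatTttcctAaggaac
Each stretch was by choice taken from within 1 exon of the pseudogene. In each pair it ran through 1 or more junctions between exons of the coding gene. Read in the frame of the coding gene, the aligned ungapped codons of Gm5946, Gm5434, Gm47672, Rps4l and Gm10123 held 0 stop codons that the coding gene lacks. Gm5371, aligned to the pyruvate kinase gene Pkm over 508 codons and not printed, held 3. A lack of such stops does not show a kept frame, since gaps in the alignment were left out. Gm47672 was aligned over only 57 codons, and its longest open reading frame was 0% of the Tcl1b2 coding length.

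The members were closer to coding genes than the other processed pseudogenes of the table. A coding gene aligned over at least 50% of the transcript was found for 721 of 738 members (97.7%), with a median identity of 98.6% (quartiles 95.8% and 99.5%). Among the 2479 processed pseudogenes that missed the FPKM rule, 93.8% had one, and the median identity was 93.0%. An identity of at least 99% was found for 295 members (40.9%) and for 7.57% of the others, and 76 members were identical to a coding gene over the aligned part. The longest open reading frame reached 90% of the coding length of the closest gene in 35.1% of members and 11.2% of the others. The closest coding genes of the members also had a higher level, with a median of 17.2 FPKM against 6.39. These are shares of a set chosen by FPKM, and reads of an abundant near-identical parent could themselves lift a copy past the rule.

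**Figure D1:**
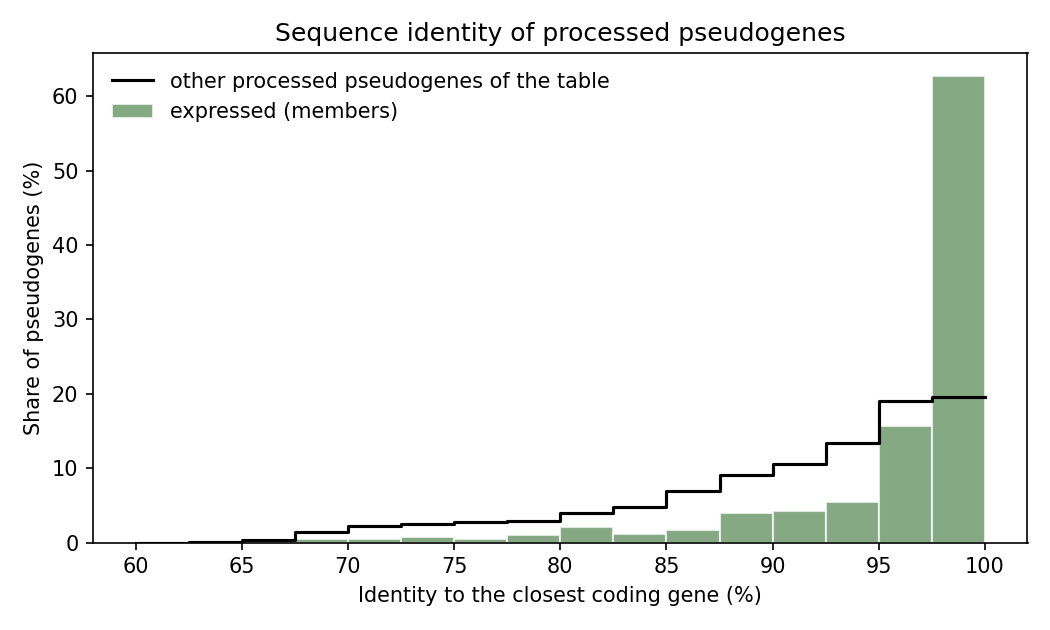
Identity to the closest coding gene (%, horizontal axis) as a share of pseudogenes (%, vertical axis) for the 721 members with such a gene (bars) and the other processed pseudogenes of the table (black line). In the highest bin, 97.5% to 100%, lie 62.7% of the members and 19.6% of the others.

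A single exon was annotated for 687 members (93.1%) and 88.7% of the others, and the median exon length was 551.5 and 642 bases. The members lay on 20 chromosomes, 59 of them on X and 0 on Y. By position, 523 (70.9%) were intergenic, 186 lay in an intron of another gene, 85 of these on its strand and the rest on the opposite one, and 29 shared an exon with another gene. No strand setting is stated for the libraries, so reads from a member and from an overlapping gene cannot be told apart for these.

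To describe how far reads could be shared, the longest annotated transcript of each member was cut into all stretches of 50 bases (50-mers). Those found in a transcript of a gene at another locus were counted. Exons of a member that lie outside its longest transcript were not covered. The median share was 61.4% in members and 14.9% in the others. Over 90% of the 50-mers were found elsewhere in 145 members, over 50% to 90% in 295, over 10% to 50% in 191, and at most 10% in 107 (14.5%, against 45.1% of the others). The authors' way of assigning reads that fit several places is not given in the sources used here. The level of a member with a high share is therefore uncertain, while reads of a member with a low share can mostly be told from those of its parent. The share was not measured for the coding genes, so the level of a parent with near-identical copies is uncertain as well.

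Levels were low for most members and high for a few. The mean over 18 libraries was under 1 FPKM for 207 members, 1 to 5 for 292, 5 to 20 for 148 and at least 20 for 91, with a median of 2.35. At least 1 FPKM was reached in all 18 libraries by 219 members and in exactly 3 libraries by 57. No group had all 3 libraries at 1 FPKM for 147 members. Just inside the rule, the third-highest library read 1.0018 FPKM for Gm8034 and 1.0028 for Gm6788, and just outside it 0.997 for Gm18101 and 0.995 for Gm8242. Steps in the FPKM values gave depths of 14227763 to 17183681 reads in genes per library, and a member had a median of 20 reads per library. For 205 members the mean was under 10 reads, so their differences were poorly resolved. Since PCR copies were not marked by identifiers, read numbers cover counting error only.

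Lsm14b read 2.04 to 11.2 FPKM in WT libraries and 0 to 0.234 in KO libraries, and all 10 oocyte marker genes had a mean of at least 1 FPKM, with a summed level of 9690 to 25695 per library. Of 12 cumulus and granulosa markers, 2 had a mean of at least 1 FPKM, and their sum was 3.61 to 9.59 FPKM per library. In KO GV replicate 2 the members took a larger share than in the rest of its group, 3.71% of summed FPKM against 2.85% in each of the other KO GV libraries. In pools of oocytes, less RNA per cell and fewer cells with the RNA cannot be told apart.

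The share of summed FPKM in members was 2.84% ± 0.259 (SD, n = 3) in WT at GV, 2.61% ± 0.0433 at MI and 1.89% ± 0.0542 at MII. In KO it was 3.14% ± 0.493, 2.65% ± 0.170 and 2.14% ± 0.108. From 515 to 570 members reached 1 FPKM in a WT GV library, 503 to 584 at MI and 392 to 411 at MII, and in KO 546 to 566, 484 to 522 and 385 to 427. In both genotypes the MII libraries lay below all GV libraries in these measures, while the ranges of WT and KO overlapped in the number of members at 1 FPKM. Since the members were chosen by level in these libraries, these values are a description.

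The 10 members with the highest mean held 28.2% of all FPKM in members. Gm1821, a copy of the polyubiquitin gene Ubb with 97.7% identity and 89.2% of 50-mers shared, was the highest, with a mean of 450.4 FPKM. It read 696, 593 and 628 FPKM in WT at GV, 320, 343 and 732 at MI and 61.9, 85.0 and 96.5 at MII. In KO the values were 589, 540 and 638 at GV, 770, 553 and 548 at MI and 374, 299 and 242 at MII. The genotypes overlapped at GV and MI and lay apart at MII, where all KO libraries were above all WT libraries (log2 difference 1.90, SE 0.286, limma adjusted p = 7.35e-05). Ubb itself differed by 2.02 at MII, so copy and parent moved alike.

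Gm5514, a copy of the lactate dehydrogenase gene Ldhb with 35.6% of 50-mers shared, read 343, 261 and 357 FPKM in WT at GV and 124, 137 and 237 at MII. In KO it read 431, 290 and 379 at GV and 458, 580 and 620 at MII. KO at MII was thus above every other group apart from some MI libraries, and the KO against WT difference at MII was 1.78 (SE 0.263, adjusted p = 6.27e-05) against 1.42 for Ldhb. Gm10123, whose whole transcript is identical to a part of Ppia, read 27.5, 25.7 and 21.7 FPKM in WT at MII and 132, 184 and 229 in KO. The difference was 2.79 (adjusted p = 2.20e-06), with no overlap, and 2.73 for Ppia. Of the other abundant members, Gm4739, a copy of the chromatin protein gene Hmgb2, had means of 335 to 481 FPKM in all 6 groups and passed the test in none of the comparisons between genotypes or stages.

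Some copies stood far above their closest gene. Gm6091, 165 bases of Tk1 (thymidine kinase) sequence with 99.4% identity, read 321, 318 and 303 FPKM in WT at GV, when Tk1 had a mean of 7.50. Gm5434 read 268, 294 and 316 FPKM there, against a mean of 7.99 for Ube2f. Over the 717 members with a parent or closest gene, 574 had a lower mean than that gene and 143 a higher one, 61 of them in all 18 libraries. The median log2 difference between member and gene was -1.84. The FPKM of a coding gene is spread over all of its annotated exons, which the copy does not carry, and this was not corrected.

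The name gave a parent in the table for 113 members, 87 different parents in all, such as Rpl17-ps10 for Rpl17. For 109 of them the parent was also the closest coding gene by sequence. The member lay below its parent in 96 of these 113 pairs, in 68 of them in all 18 libraries, and above it in 17, in 5 of them in all 18. Bnip3l-ps, a copy of the mitophagy receptor gene Bnip3l with a full-length reading frame, had means of 111 FPKM in WT at GV and 33.3 at MII, and of 92.4 and 180 in KO. Bnip3l had 152 and 46.1 in WT and 135 and 244 in KO. Dppa3-ps, a copy of the maternal effect gene Dppa3 with 33.6% of 50-mers shared, had means of 14.4 to 48.0 FPKM, while Dppa3 had 507 to 1503. Neither Dppa3-ps nor Dppa3 passed the test between genotypes at any stage.

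**Figure D2:**
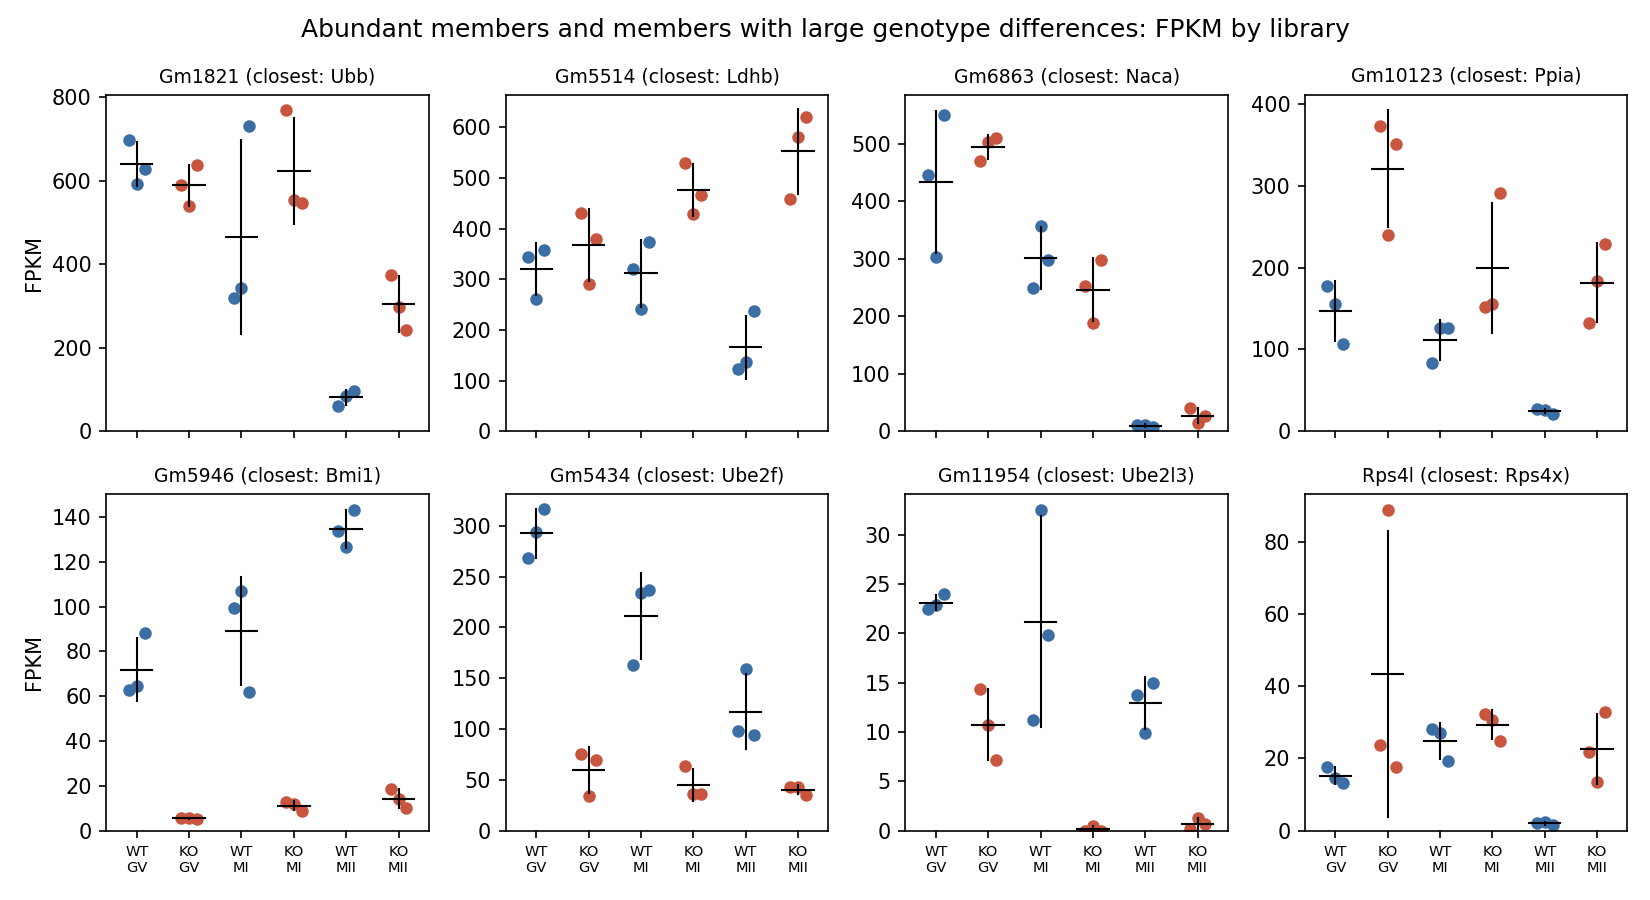
FPKM (vertical axes, from 0) of 8 members in the 6 groups; points are libraries (blue WT, red KO), horizontal bars means and vertical bars SD (n = 3). Gm1821, Gm5514, Gm10123 and Rps4l lie higher in KO than in WT at MII, while Gm5946, Gm5434 and Gm11954 lie lower in KO than in WT at each stage.

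From GV to MII in WT, the members fell more often than they rose. On log2(FPKM + 1), 283 fell and 80 rose, together 49.2% of the 738 members, while 57.7% of all 10320 genes tested were called (limma, Benjamini-Hochberg adjusted p under 0.05). Falls took 38.3% of members and 28.8% of all genes, and rises 10.8% and 28.9%. The larger share of falls was not seen in every kind of member. Of the 386 members whose parent or closest gene was in none of the gene classes used here, 109 fell in WT (28.2%) and 58 rose. Their share of falls was thus near the background, and their share of rises was below it. Falls were most frequent in copies of ribosomal protein genes (59.9%) and respiratory chain genes (65.4%), described below. Where groups are said below to lie apart, the background is that 69.7% of all genes had WT groups apart between GV and MII, 43.5% KO groups, and 31% (GV), 35.7% (MI) and 50.6% (MII) had genotypes apart. The median log2 change was -0.40 in members and 0.09 in all genes. In KO, 244 members fell and 61 rose, 41.3% in all beside 37.2% of all genes, with falls in 33.1% and 25.4% and rises in 8.27% and 11.9%. With quantile normalization the WT split was 268 against 122 and the KO split 215 against 122, still with more falls.

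Pseudogenes of ribosomal protein genes made up the largest class, 182 members from 67 genes. In WT, 109 of them fell from GV to MII and 4 rose, with a median of -1.09, and of 63 tested parent genes 59 fell and 0 rose, with a median of -2.71. Rpl37rt, a copy of Rpl37, fell from 579, 408 and 723 FPKM to 90.1, 111 and 69.5 (log2 change -2.63). Rpl17-ps10 fell from 328, 227 and 287 FPKM to 75.2, 119 and 73.6 (-1.66), and Rpl17 fell by 1.58. Both pairs of groups lay apart. Of the 4 that rose, 3 were Gm14276 (Rps2, 0.97), Gm46203 (Rpl29, 0.92) and Gm9451 (Rpl6, 0.89). In KO, 117 of the 182 fell and 7 rose. The falls were 59.9% of the class in WT and 64.3% in KO, beside 28.8% and 25.4% of all genes.

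Copies of respiratory chain genes did the same. Of 26 members, 17 fell in WT and 0 rose, with a median of -1.19, and 18 of 19 tested parents fell. Gm10039, a copy of the ATP synthase gene Atp5g1, fell from 49.6, 39.0 and 58.3 FPKM to 0.289, 1.04 and 0.299 (log2 change -5.04). Gm10250, a copy of Atp5h, fell by 2.73 and Gm10221, a copy of Atp5l, by 3.37. In KO, 16 of the 26 fell and 0 rose. The falls were 65.4% of the class in WT and 61.5% in KO, beside 28.8% and 25.4% of all genes.

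Among the other classes, 14 of 30 members from proteasome and ubiquitin genes fell in WT (46.7%) and 2 rose (6.67%). Of 14 from glycolysis genes, 7 fell (50%) and 1 rose (7.14%). Of 17 members from splicing and hnRNP genes, 4 rose (23.5%) and 2 fell (11.8%). Of all genes, 28.8% fell and 28.9% rose, so the splicing and hnRNP class did not exceed the background in rises. Gm11847, a copy of Hnrnpa3, rose from 2.94, 1.53 and 2.32 FPKM to 7.47, 13.0 and 8.68 (1.71, adjusted p = 0.0016), and Hnrnpa3 rose by 1.53. Among the largest falls of single members were those of Gm6863, a copy of Naca, from a mean of 433 to 9.84 FPKM (-5.30), and of Nudc-ps1, from 284 to 6.32 (-5.28). Among the largest rises were Ppp1r2-ps3 from 0.754 to 6.24 FPKM (2.07) and Gm6206, a copy of the ubiquitin ligase gene Cop1, from 3.00 to 12.7 (1.80).

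**Figure D3:**
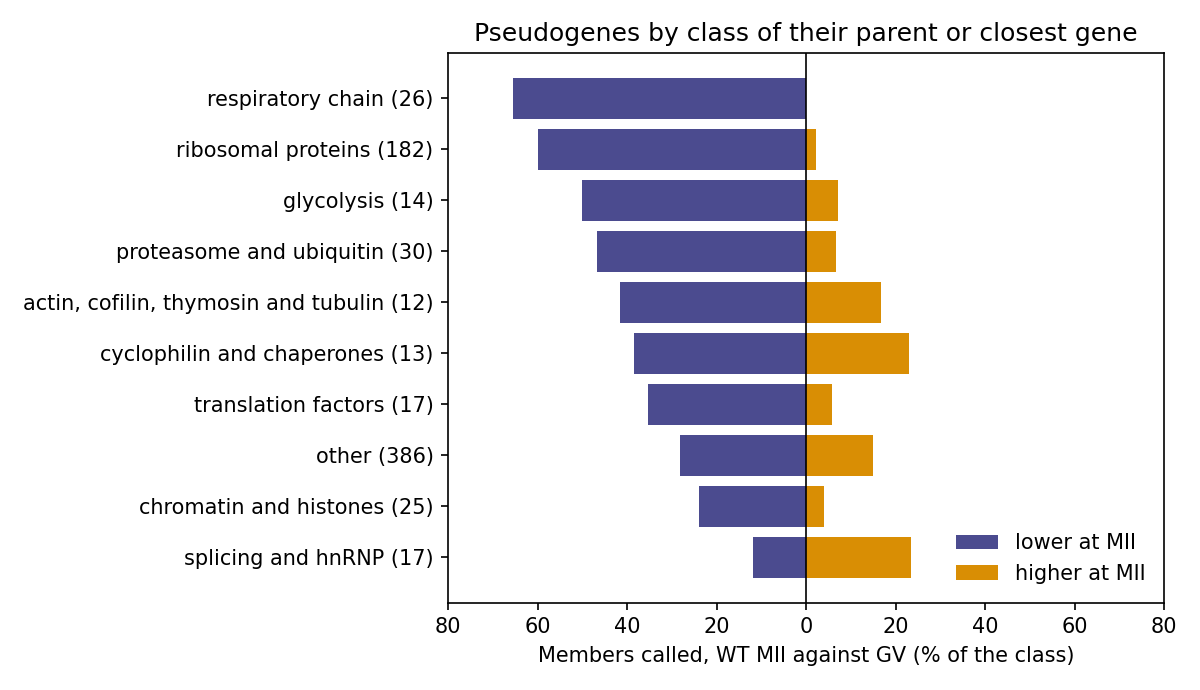
Members called in WT from GV to MII by the class of their parent or closest gene (number of members in parentheses), as a share of the class (%): lower to the left, higher to the right of 0. Ribosomal protein and respiratory chain copies lie far to the left, with 109 of 182 and 17 of 26 lower.

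Between genotypes, the members were called about as often as other genes or less. At GV, 82 were higher in KO and 59 lower, 19.1% of members beside 20.8% of all genes (13.3% higher and 7.49% lower). At MI, 26 were higher and 69 lower, 12.9% beside 17.3% (3.63% higher and 13.7% lower), and at MII 102 were higher and 74 lower, 23.8% beside 28.6% (14.9% and 13.8%). The balance of directions at GV and MI depended on scaling, since median-of-ratios scaling shifted the all-gene median from 0.17 to -0.04 at GV and from -0.13 to 0.02 at MI. The splits with that scaling were 65 higher and 89 lower at GV and 47 and 56 at MI, and with quantile normalization 68 and 89, and 49 and 51. At MII the direction stayed, with 109 and 77 and with 117 and 82. Without KO GV replicate 2, 34 members were higher and 36 lower at GV, and without KO GV replicate 3, 148 and 100.

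At GV, the counts by class were as follows, with no test between classes. Of the ribosomal protein copies, 29 were higher in KO and 4 lower, with a median log2 difference of 0.44 beside 0.17 in all genes, and 21 of 63 parents were higher and 0 lower. Examples were Gm10288 (closest Rpl11, 1.36) and Rpl10-ps1 (0.84, beside 1.29 for Rpl10, to which it is identical). Of the 182, 15.9% were higher and 2.20% lower, beside 13.3% and 7.49% of all genes. The count was 2 higher and 0 lower with only the compared groups in the fit, and 14 and 2 with no filter on low values. Without KO GV replicate 2 the count was 11 higher and 3 lower and the median 0.13. It was 13 and 5 without WT GV replicate 2, 13 and 2 without WT GV replicate 3, and 63 and 5 without KO GV replicate 3. Of 13 copies of cyclophilin and chaperone genes, 6 were higher and 0 lower. The 13 came from 7 genes, and 6 of the 13 were copies of Ppia. Of the 7 genes, 3 were higher and 0 lower. This class was not recounted without single libraries. Among its higher members was Gm12346, a copy of Hsp90aa1. It read 98.3, 67.1 and 99.5 FPKM in WT and 174, 363 and 154 in KO (1.29, limma adjusted p = 0.0141). Of 30 copies of proteasome and ubiquitin genes, 2 were higher and 10 lower. The counts were 1 and 4 without KO GV replicate 2, 1 and 5 without WT GV replicate 1, 2 and 4 without WT GV replicate 3, 2 and 15 without KO GV replicate 3, 1 and 4 with no filter, and 1 and 2 with only the compared groups. Copies of splicing and of translation factor genes had 0 calls at GV by limma, of 17 each.

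At MII, 26 of the ribosomal protein copies (14.3%) were higher in KO and 11 (6.04%) lower, beside 14.9% and 13.8% of all genes, so the share higher was near the background. Of the glycolysis copies, 5 of 14 were higher and 0 lower. The 5 were Gm5514 and 4 copies of Gapdh, Gm7336 (1.21), Gm5559 (1.04), Gm2606 (0.82) and Gm12070 (0.80). Gm12693, a copy of Rwdd1, read 1.60, 0.881 and 0.891 FPKM in WT at MII and 27.1, 17.2 and 33.9 in KO (3.64, adjusted p = 5.96e-08, no overlap). Rwdd1 differed by 3.54. Gm3788, 136 bases with 99.3% identity to the thymosin gene Tmsb10, read 0 in all 3 WT libraries at MII and 19.785, 10.002 and 23.835 FPKM in KO, which is at least 13.4-fold higher against a floor of 3 reads per library. Tmsb10 had means of 7.29 and 257 FPKM there. On the other side, Gm8451, a copy of Rpl27a, was lower in KO at MII (means 17.0 and 2.10 FPKM, -2.47), while Rpl27a differed by 0.25 and did not pass.

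How closely members followed their parent or closest gene went with the share of 50-mers found elsewhere. Over the 141 tested pairs with over 90% shared, Pearson's r between the KO against WT differences of member and gene at MII was 0.778, over 284 pairs with 50% to 90% it was 0.788, over 176 with 10% to 50% it was 0.468, and over 78 with at most 10% it was 0.0642. At GV the values were 0.833, 0.794, 0.542 and 0.131, and for the change from GV to MII in WT 0.857, 0.777, 0.648 and 0.119. These are descriptions across genes that share the same libraries, that often share 1 parent, and whose reads may have been assigned to either. Of members and genes both called at MII, 111 of 116 had the same direction. All 5 that did not, Gm18757, Gm11954, Gm12535, Gm11197 and Gm27047, had at most 35% of 50-mers shared. This did not hold in every comparison. With over 50% to 90% shared, 1 of 20 pairs both called at MI had opposite directions. For the change from GV to MII in WT it was 1 of 133.

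**Figure D4:**
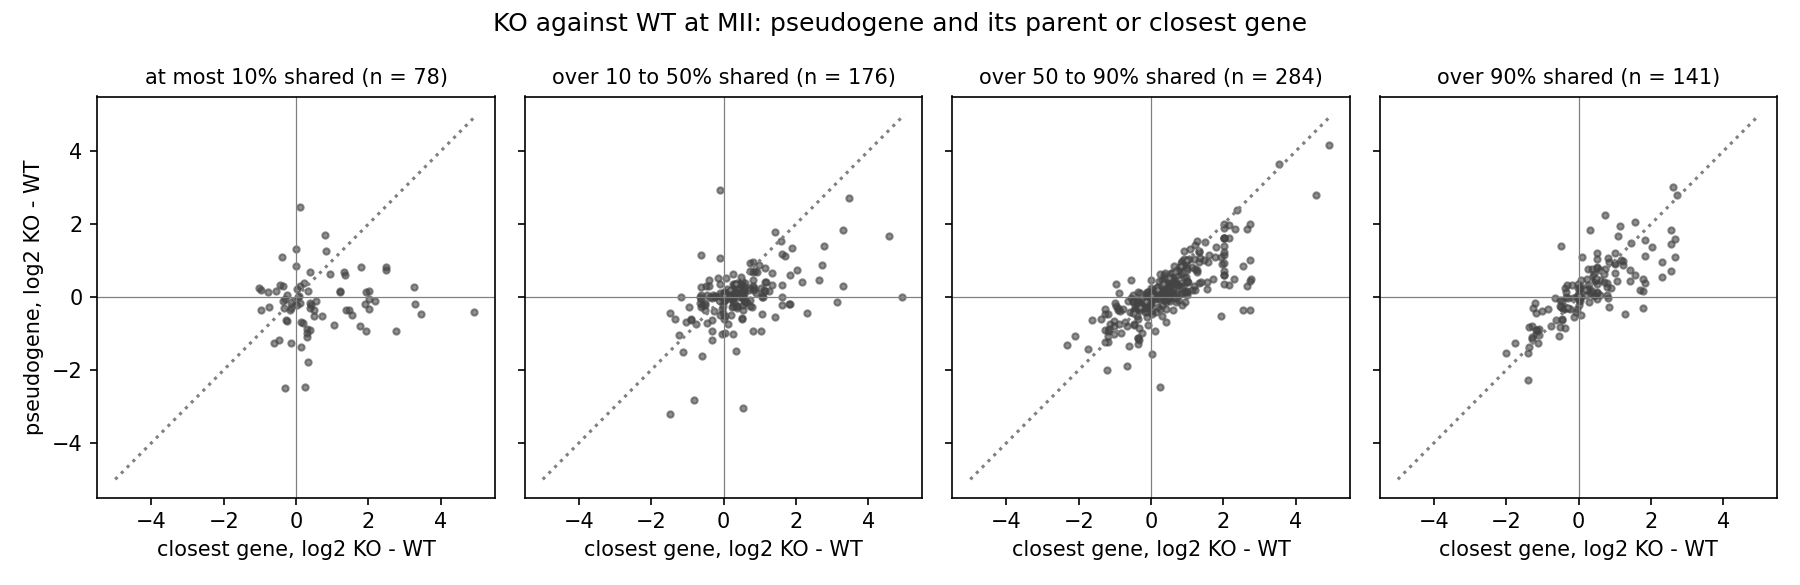
Log2 difference of KO against WT at MII for each member (vertical axis) and its parent or closest gene (horizontal axis), in 4 panels by the share of 50-mers found in another gene. Points lie near the dotted line of equal change with over 50% shared (n = 284 and 141) and scatter away from it with at most 10% shared (n = 78).

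The calls were also counted by that share, with no test of the difference between these groups of members. At GV, 62 of the 440 members with over 50% shared were higher in KO and 20 lower, while 6 of the 107 with at most 10% were higher and 16 lower, beside 13.3% and 7.49% of all genes. With median-of-ratios scaling these counts were 48 and 35 against 5 and 23. Leaving out 1 library gave 23 and 12 against 6 and 12 (KO GV replicate 2), 118 and 52 against 9 and 14 (KO GV replicate 3), 45 and 11 against 5 and 10 (KO GV replicate 1), 46 and 12 against 5 and 8 (WT GV replicate 1), 27 and 18 against 5 and 12 (WT GV replicate 2), and 25 and 10 against 4 and 6 (WT GV replicate 3). With no filter the counts were 27 and 9 against 3 and 7, and with only the compared groups in the fit 7 and 4 against 1 and 4. At MI they were 19 and 29 against 3 and 20, with more lower than higher in both, and median-of-ratios scaling turned the first to 35 and 26. Of the 107, 2.80% were higher and 18.7% lower at MI, beside 3.63% and 13.7% of all genes. At MII they were 78 and 40 against 9 and 15. Those 9 and 15 were 8.41% and 14.0% of the 107, beside 14.9% and 13.8% of all genes, so the share lower was near the background.

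Members with at most 10% of 50-mers shared and a mean of at least 5 FPKM numbered 28. They are described next because their reads can mostly be told from those of genes at other loci. The share leaves out genes at the locus of the member itself. Some of the 28 overlap an exon or intron of another gene, whose reads cannot be told apart from theirs. This selection by sequence and mean level was made after values had been seen. Gm15754, on chromosome 5 with 2 exons and 0% shared, read 53.1, 61.7 and 36.8 FPKM in WT at GV, 38.7, 40.2 and 43.2 at MI and 35.6, 47.1 and 48.1 at MII. In KO it read 12.4, 9.73 and 12.2 at GV, 5.21, 3.99 and 14.5 at MI and 7.10, 6.20 and 7.34 at MII. Every KO library lay below every WT library, and the level did not pass the test between GV and MII in either genotype. The log2 differences were -2.03, -2.41 and -2.49 (SE 0.316, adjusted p = 0.000377, 5.10e-05 and 1.34e-05), against -1.03, -0.87 and -0.30 for Btf3, its closest coding gene, which encodes a subunit of the nascent polypeptide-associated complex. The last of these did not pass.

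Gm47672, with 82.1% identity to Tcl1b2 over 70.3% of its 246 bases, followed the same pattern with a different course. It read 14.2, 9.67 and 16.0 FPKM in WT at GV, 20.5, 44.2 and 17.0 at MI and 35.2, 27.7 and 29.7 at MII. KO libraries read 2.96, 4.13 and 3.38, then 0.987, 6.39 and 1.48, then 5.97, 6.28 and 2.73. The genotypes did not overlap at any stage, with differences of -1.65, -2.97 and -2.47, and WT rose by 1.18 from GV to MII (adjusted p = 0.0209), a call lost without WT GV replicate 2, without WT MII replicate 1 or with no filter. Tcl1b2 did not pass the test between genotypes at any stage. The call at GV was lost without WT GV replicate 3 (adjusted p = 0.0533).

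Gm10364, 2 exons on chromosome 14 with 4.7% shared, had its closest match in Gm10358. It read 13.7, 16.4 and 10.7 FPKM in WT at GV and 1.39, 0.714 and 3.44 in KO. At MI the values were 13.7, 11.5 and 16.4 against 0.274, 0.570 and 0.182, and at MII 6.92, 5.08 and 6.95 against 0.507, 0.372 and 1.11. The differences, -2.45, -3.47 and -2.15, passed at each stage, and Gm10358 was listed at means of at most 0.0489 FPKM. Gm7825, 92.3% identical to the ubiquitin-conjugating enzyme variant gene Ube2v1, was lower in KO at GV (39.9, 44.7 and 41.1 FPKM in WT, 12.2, 7.81 and 6.33 in KO, -2.17, adjusted p = 0.0107) and at MI (-2.59). At MII both genotypes were low, with means of 2.33 and 1.37 FPKM. Ube2v1 was listed at means of at most 0.0403 FPKM.

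Other members of the 28 fell in WT from GV to MII and were higher in KO than in WT at MII; Speer5-ps1 and Gm32983 fell in KO too, by less. Speer5-ps1, with 8 annotated exons of 8634 bases in all on chromosome 10, shares an exon with Gm18669 on the opposite strand. Speer5-ps1 read 103, 78.9 and 92.2 FPKM in WT at GV and 1.59, 1.47 and 1.15 at MII. In KO it read 135, 114 and 100 at GV and 44.3, 22.9 and 36.8 at MII. The genotypes differed by 3.85 at MII (adjusted p = 1.62e-08), and the changes from GV to MII, -5.26 in WT and -1.76 in KO, differed by 3.50 (adjusted p = 3.29e-05). Gm32983, in an intron of Lrrc28 on its opposite strand, read 39.5, 41.8 and 37.7 FPKM in WT at GV and 2.23, 1.81 and 2.92 at MII, against 41.1, 53.2 and 43.2 and then 23.9, 13.0 and 16.6 in KO. It fell by 3.63 in WT and by 1.35 in KO. Its difference between genotypes at MII was 2.48, and that between the changes was 2.28 (adjusted p = 0.00127), while Lgalsl, its closest coding gene, had means of 4.11 to 8.14 FPKM and passed neither of these tests, though it was higher in KO at GV (0.72, adjusted p = 0.0499). Gm12633, closest to the zinc finger gene Zfp352, read 3.86, 5.13 and 5.12 FPKM in WT at MII and 34.0, 31.4 and 17.3 in KO (2.28, adjusted p = 0.00264), after a wide spread in KO at GV of 4.84 to 33.0.

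Several of the 28 had a steady level. Gm15681, 2704 bases in an intron of Cdh8 with 2.2% shared, had means of 44.9 to 59.7 FPKM in the 6 groups and differed between genotypes by at most 0.34 in size on the log2 scale (SE 0.260), with no call. Gm3333, with 4 annotated exons and 79.0% identity to Zfp950, had means of 28.8 to 38.3 FPKM but ranged from 15.4 to 58.6 within WT. A few rose to MII. Gm6150, with 5 exons, rose from 9.82, 9.78 and 6.83 FPKM to 31.9, 20.02 and 24.6 in WT (1.42) and by 1.75 in KO, and Gm14276, with 85.9% identity to Rps2, rose by 0.97 in WT and 1.15 in KO.

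Gm19248 moved against its closest gene. Its 110 bases are 92.7% identical to Tmsb10, and 8.2% of its 50-mers were shared. It read 3.59, 2.22 and 4.47 FPKM in WT at GV and 9.17, 8.84 and 15.1 at MII, a rise of 1.44 (adjusted p = 0.00795), while Tmsb10 fell by 5.04. In KO it rose by 2.28 while Tmsb10 fell by 1.44. A transcript this short gathers few reads, which limits the precision of these values.

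**Figure D5:**
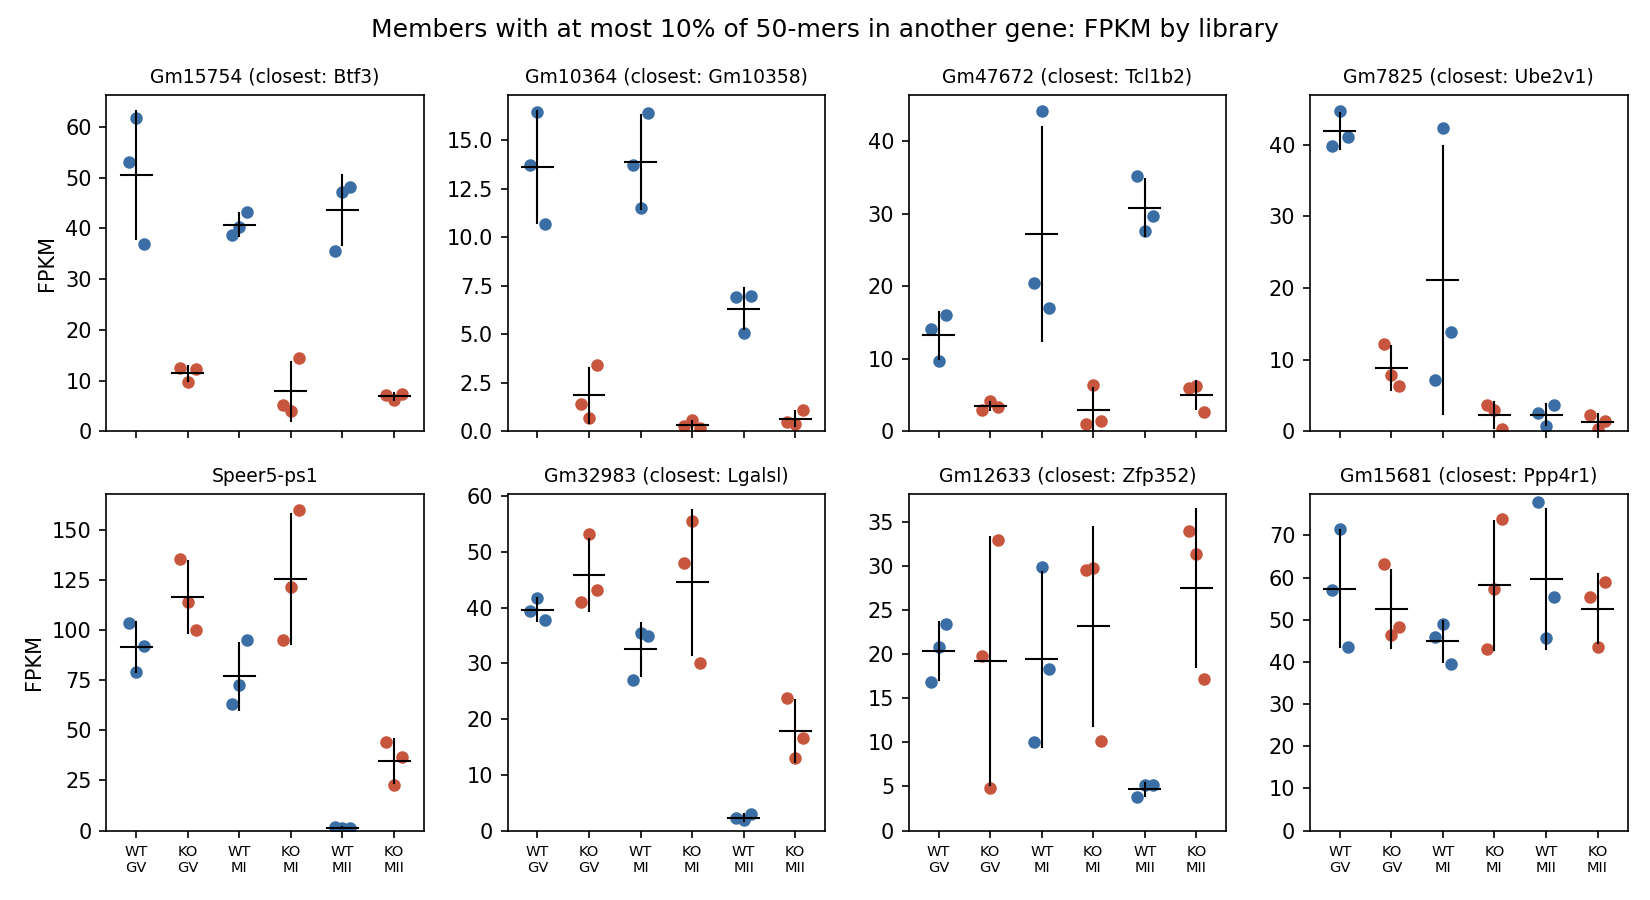
FPKM (vertical axes, from 0) of 8 members with at most 10% of 50-mers in another gene, in the 6 groups; points are libraries (blue WT, red KO), horizontal bars means and vertical bars SD (n = 3). Gm15754, Gm10364 and Gm47672 lie lower in KO at each stage and Gm7825 at GV and MI, Speer5-ps1, Gm32983 and Gm12633 lie higher in KO at MII, and Gm15681 overlaps throughout.

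With somewhat more sequence shared, Gm5946 and Gm5434 are shown for their level and size of difference, chosen after values had been seen, as were Gm11954 and Rps4l. Gm5946 lies on X (chrX:150220716-150226021), has 24.3% of 50-mers shared and keeps a reading frame of 89.5% of the Bmi1 coding length. It read 62.6, 64.7 and 88.1 FPKM in WT at GV, 99.2, 107 and 61.6 at MI and 134, 127 and 143 at MII. KO libraries read 5.78, 5.37 and 5.34, then 12.7, 11.8 and 8.76, then 18.6, 14.1 and 9.97. All KO libraries lay below all WT libraries, with differences of -3.47, -2.88 and -3.19 (SE 0.254, adjusted p = 8.13e-08, 5.97e-07 and 7.41e-08), and the level rose from GV to MII in both genotypes. Bmi1 differed in the same direction by less, -1.12, -0.88 and -1.49.

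Gm5434 (chr12:36090379-36091829, 11.2% shared, with a reading frame as long as the Ube2f coding sequence) read 268, 294 and 316 FPKM in WT at GV, 163, 234 and 237 at MI and 98.3, 159 and 93.7 at MII. In KO it read 75.4, 34.2 and 69.7, then 63.4, 35.9 and 35.8, then 43.0, 42.8 and 35.3. The groups lay apart at each stage, with differences of -2.35, -2.24 and -1.48, and Ube2f passed at none. Gm11954, a copy of Ube2l3 with 35.0% shared, read 11.2, 32.5 and 19.8 FPKM in WT at MI and 0, 0.500 and 0 in KO (-4.16, adjusted p = 2.56e-07). At MII it differed by -3.06, while Ube2l3 was higher in KO by 0.53.

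Rps4l, 79.7% identical to Rps4x, in an intron of Tmtc1 on its opposite strand, keeps a reading frame of 99.6% of the Rps4x coding length. It read 2.01, 2.45 and 1.43 FPKM in WT at MII and 21.7, 13.4 and 32.8 in KO, with no overlap (2.92, adjusted p = 4.58e-05). Rps4x had means of 0.656 and 0.539 FPKM there and differed by -0.10, which did not pass. Rps4x was the parent or closest gene of 3 members, and how reads shared with such copies were assigned is not given. At GV, KO GV replicate 2 read 88.9 FPKM for Rps4l, against 23.6 and 17.6 in the other KO libraries.

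Across stages, 14 members (1.90%) were lower in KO at GV, MI and MII, beside 3.39% of all genes, and 9 (1.22%) were higher at all 3, beside 1.71%. Of the 14, 5 had at most 10% of 50-mers shared and 4 had over 50%. The 14 included Gm5946, Gm5434, Gm15754, Gm47672, Gm10364, Gm11954, Zfp813-ps, Rbm3-ps and Gm10509, a copy of Zfp983 that had means of 20.2 FPKM in WT and 2.01 in KO at GV. The 9 included Gm3788, Rpl10-ps1, Rpl10-ps5 and Rpl19-ps3. The MI call of Gm3788 was lost with pseudocount 0.1, no filter or the replicate block, and without any of several single MI libraries. The GV call of Rpl19-ps3 was lost with only the compared groups in the fit. The 57 members annotated as transcribed had 12 higher and 13 lower in KO at MII (43.9%), and the 681 others 90 and 61 (22.2%). Of all genes, 28.6% were called there, and the difference between the 2 annotations was not tested. The 57 also had a higher level, with a median of 3.96 FPKM against 2.19. Calls at MII went with level, from 12.1% of members with a mean under 1 FPKM to 46.2% of those over 20.

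The change from GV to MII differed between genotypes for 41 members, 25 with a more positive change in KO and 16 with a more negative one, 5.56% beside 5.61% of all genes (3.88% and 1.73%). Of the 91 members with a mean of at least 20 FPKM, 14 had a more positive change in KO and 4 a more negative one. Gm1821 and Gm10123, copies of Ubb and Ppia, Speer5-ps1 and Bnip3l-ps were among the former, and Rpl17-ps10 among the latter. Calls of this kind went with level, from 1.45% of members with a mean under 1 FPKM to 19.8% of the 91. The share among all genes of that level was not counted.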

How the data were processed

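RNA of 18 libraries of 15 oocytes each was amplified by Smart-seq2 with an oligo(dT) primer, per the labels' protocols, so a change in tail length could alter a level with no change in RNA amount. The deposited table gives FPKM per gene and library as the authors computed it; aligner, counter, annotation, strand setting and treatment of reads that fit several places: not given in the sources used here. The submitters' processing notes name DESeq2 1.38.3 and the mm10 build, with no role. FPKM steps gave whole reads for 96.1% to 97.2% of the members' values above 0 (within 0.05 read), from which the depth of 14227763 to 17183681 reads was taken.

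The 10320 genes that reached 1 FPKM in 3 or more libraries were tested on log2(FPKM + 1) with limma 3.58.1 in R 4.3.3, with 6 group means, a variance trend and 12 residual degrees of freedom. A log2 difference on this scale understates the change of low genes. P-values were adjusted by Benjamini-Hochberg over all genes tested in each of 6 comparisons, and a call is an adjusted p under 0.05. KO against WT values are differences between genotypes; comparisons that use the same group share its libraries. The fit was tested on simulated data. Closest coding genes came from BLAST+ 2.17.0 on GENCODE vM21 transcripts (word size 15, e-value 1e-10, at least 50% of the member aligned). Tables and figures used Python 3.11.15, numpy 2.4.6, pandas 2.3.3 and matplotlib 3.10.9.

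Named members were the 10 with the highest mean, up to 5 each way with the largest called change between genotypes at each stage and from GV to MII in WT (mean of at least 5 FPKM in either group, groups apart), up to 5 each way for the difference between genotypes in that change, the 5 by name that differed most from their parent at MII, and members annotated as transcribed with a mean of at least 5 FPKM. Any other member was named after values were seen, as an example of its class or of the group with little shared sequence. The members and lists were chosen with earlier results of these data known. Alternatives were the pseudocount, the filter, the scaling, the variance trend, the groups in the fit, the replicate block and each library left out. 5 of the aligned pairs are printed as sequence, and 1 parent gene is not reported here.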

Additional observations from a re-analysis of the deposited data

Results flagged for a closer look

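The change from GV to MII differed between KO and WT for these 17 named members by the interaction test of limma (Benjamini-Hochberg adjusted over all genes tested). The log2 change was more positive in KO by 3.50 for Speer5-ps1, 2.98 for Gm3788, 2.96 for Bnip3l-ps, 2.94 for Gm12693, 2.73 for Gm10259 and 2.23 for Gm10177. It was more positive by 2.01 for Gm1821, 1.66 for Gm10123, 1.59 for Gm5514 and 1.48 for each of Gm6091 and Gm15500. For the other members the log2 difference between the changes, KO minus WT, was negative: -4.01 for Gm8451, -2.68 for Gm11847, -2.33 for Gm15501, -2.29 for Ppp1r2-ps3, -1.97 for Gm11954 and -1.46 for Rpl17-ps10. The calls for Gm11954, Gm15501, Ppp1r2-ps3 and Gm10259 were each lost without 1 or more single libraries.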

How the results depend on the processing

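Of 50 results for a named member in 1 comparison, 36 kept their call in every alternative, 41 without any 1 library, and 0 changed direction. Calls lost were 10 with no filter on low values, 7 with only the groups compared in the fit, 3 each with pseudocount 5 and the replicate block, and 1 with pseudocount 0.1.

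Counts of members called moved by over 1.5 times as follows; the cause was not tested. With no filter, 35 were higher and 31 lower in KO at GV, 9 and 40 at MI, 46 lower at MII, 35 rose in KO from GV to MII, and 9 and 1 differed between genotypes in that change. With a filter at 5 FPKM, which tests fewer members, 31 were higher at GV, 11 higher and 45 lower at MI and 48 lower at MII, 44 rose and 158 fell in WT, and 122 fell in KO. Median-of-ratios scaling gave 89 lower at GV, 47 higher at MI and 47 with a more positive change in KO. With quantile normalization these were 89, 49 and 38, and 122 rose in WT and 122 in KO. With pseudocount 0.1, 38 changed more positively in KO. A fit of only the compared groups gave 9 higher and 13 lower at GV, 23 that rose in KO and 10 with a more negative change.

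Leaving out 1 library gave 34 to 148 higher and 29 to 100 lower at GV, 12 to 19 and 39 to 90 at MI, and 77 to 86 and 49 to 63 at MII. From GV to MII, 58 to 75 rose and 253 to 279 fell in WT, 40 to 77 and 206 to 263 in KO, and 12 to 71 and 3 to 76 differed between genotypes. The extremes of 148, 100, 71 and 76 came without KO GV replicate 3.

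Same-numbered libraries correlated between -0.52 and 0.42 in their deviations, so the numbers were not taken as a pairing. With the replicate block, 77 were higher and 57 lower at GV, 21 and 69 at MI, 103 and 72 at MII, 82 rose and 279 fell in WT, 57 and 245 in KO, and 19 and 7 differed between genotypes. Low read numbers limit the members near 1 FPKM.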
